A study of Homo sapiens with 12 samples.

Results

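U87 is an established human glioma cell line, grown here in culture, and 6 of the 12 libraries of the series come from it. These 6 were taken as a group by their labels: 3 libraries of U87 labelled with artesunate at 24.08 µM and 24 h, and 3 of U87 in control medium, for which a solvent control is not stated. All 6 carry the label day 9 and hold polyadenylated RNA. The sample labels name artesunate as the agent, whereas the extraction text names artemisinin, the parent compound. Whether the replicates are separate cultures is not stated, so p values measure the spread between these samples, which may be technical.

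Artesunate is a semi-synthetic derivative of artemisinin, and both carry an endoperoxide bridge that ferrous iron or heme opens into reactive radicals. Cells answer oxidant and amino acid stress through a pair of well described programs. In the integrated stress response, kinases that sense stress phosphorylate the translation factor eIF2, bulk translation slows, and the transcription factor ATF4 raises amino acid transport, amino acid synthesis and tRNA charging. In the NRF2 response, oxidants release the transcription factor NRF2 from its inhibitor KEAP1, and enzymes of glutathione and thioredoxin metabolism rise.

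The libraries held 13631985 to 17314284 counts. Of 58302 listed genes 15442 passed the filter on low counts and were tested with edgeR's quasi-likelihood test, with calls made at an adjusted p (Benjamini-Hochberg, over all of them) under 0.05. Markers of the glioma line were uneven. VIM, the intermediate filament vimentin, stood at 6194, 5946 and 5783 CPM (counts scaled for library size, with TMM factors) in controls 1, 2 and 3, while GFAP, the astrocyte filament, stood at 1.70, 0.733 and 0.634 CPM. The glial markers SOX2, AQP4 and ALDH1L1 had 0 counts in all 6 libraries, as had the tumour suppressors CDKN2A and CDKN2B. Some markers of other cell types had 0 counts as well, namely MOG, MAG and SOX10 of oligodendrocytes, AIF1, TYROBP and CD3E of microglia and leukocytes, FLT1 of endothelium, KRT19 of epithelium and THY1 of fibroblasts. Other members of the same lists were expressed. Summed over tested members, controls held 84.6 to 128 CPM for oligodendrocyte markers, all of it from CNP, the only 1 of 8 tested. They held 74.0 to 118 CPM for microglia and leukocyte markers (2 of 11 tested) and 129 to 134 CPM for endothelial markers (5 of 8 tested). The sums were 4.82 to 6.54 CPM for epithelial markers and 1090.5 to 1127 CPM for fibroblast and mesenchymal markers.

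The U87 transcriptome changed broadly after artesunate. Of the 15442 genes, 9096 were called (58.9%), 4433 higher (28.7%) and 4663 lower (30.2%). At least 2-fold changes were called for 1704 genes upward (11.0%) and 2828 downward (18.3%), 230 and 733 genes passed 4-fold, and 46 and 157 passed 8-fold. The artesunate and control libraries did not overlap for 10419 genes (67.5%). The median log2 fold change of all genes was -0.01, and the counts of each gene group below are to be read against 28.7% and 30.2%. Counts after the GC and length correction described below are to be read against 23.8% and 22.5%. Those without 1 library are to be read against the calls of that fit over all genes. These were 4029 higher and 4159 lower of 15837 without control 1, 3640 and 3795 of 15826 without control 2, and 3605 and 3862 of 15875 without control 3. They were 3979 and 4216 of 15867 without artesunate 1, 4786 and 5270 of 15875 without artesunate 2, and 3820 and 3992 of 15789 without artesunate 3. Bulk libraries cannot tell a change in RNA per cell from a change in which cells were left after 24 h.

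**Figure D1:**
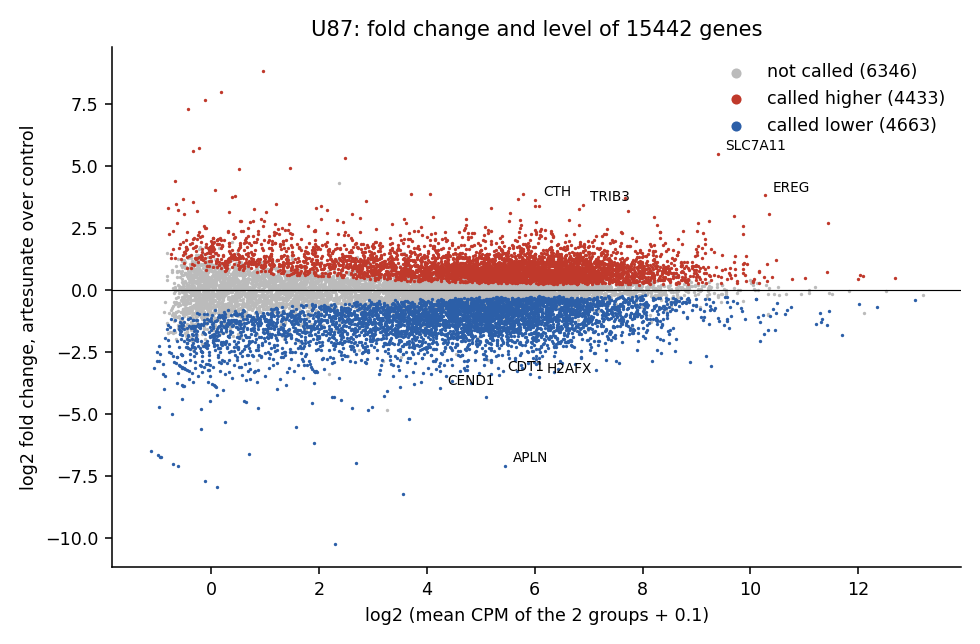
Each point is a gene, placed by the log2 of its mean CPM over both groups (x) and its log2 fold change, artesunate over control (y). The 4433 genes called higher and the 4663 called lower spread on both sides of 0, with SLC7A11 and EREG far above and APLN far below the bulk of genes of like level.

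The 3 artesunate libraries differed in strength. The median absolute log2 difference from the control mean was 0.769 in artesunate library 1, 0.587 in library 2 and 0.730 in library 3, against 0.125 to 0.173 for each control set against the other controls. Among called genes, library 2 had the smallest difference in 64.6% and library 1 the largest in 52.5%. Mitochondrial transcripts took 3.74% to 4.18% of counts in the controls, 3.42% in artesunate library 2, and 1.80% and 1.95% in libraries 1 and 3. Without artesunate library 2 the fit called 4786 genes higher and 5270 lower.

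Fold changes followed base composition. Spearman's rho between the log2 fold change and the GC content of the longest transcript was -0.662 over 15395 genes, and rho with its length was 0.163, both given as descriptions across genes, which are not independent. The genes were split into 5 groups of like size by GC content. In the group with the least (23.1% to 40.9%) the median log2 fold change was 0.69, and 61.4% of them rose and 4.77% fell. In the group with the most (57.4% to 83.9%) it was -1.21, and 1.85% rose and 73.0% fell. The slope was present in each artesunate library (rho -0.676, -0.552 and -0.664) and, with smaller differences, between controls (rho -0.429, 0.338 and 0.169). In the group with the most GC the median difference was -1.46, -0.79 and -1.34 in artesunate libraries 1, 2 and 3. Genes of high GC content thus stood higher in library 2 as a class. CHAC1, SLC3A2, HMOX1 and CDKN1A, described below, were highest in library 2, and the correction raised each of them. The part of this class difference in their library 2 values was not tested. A fit with offsets that remove the trend with GC and length in each library called 3679 genes higher (23.8%) and 3472 lower (22.5%), of which 5005 were called in the same direction without the correction and 380 in the opposite direction. Whether the trend arises in the cells or in the libraries was not tested. Below, a corrected log2 fold change is given for a gene, and a corrected median for a list whose median is printed, in certain cases. These are where the correction changed the call or the direction, or moved the value by more than 1.5 times. Lists described only by counts have neither median, which does not mean that the correction left them unchanged. For example, the median of the AP-1, early growth response and MAPK feedback genes was -0.20 without the correction and 0.27 with it. That of the hypoxia targets was 0.10 without it and -0.08 with it. Adjusted p are those of the fit without the correction.

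**Figure D2:**
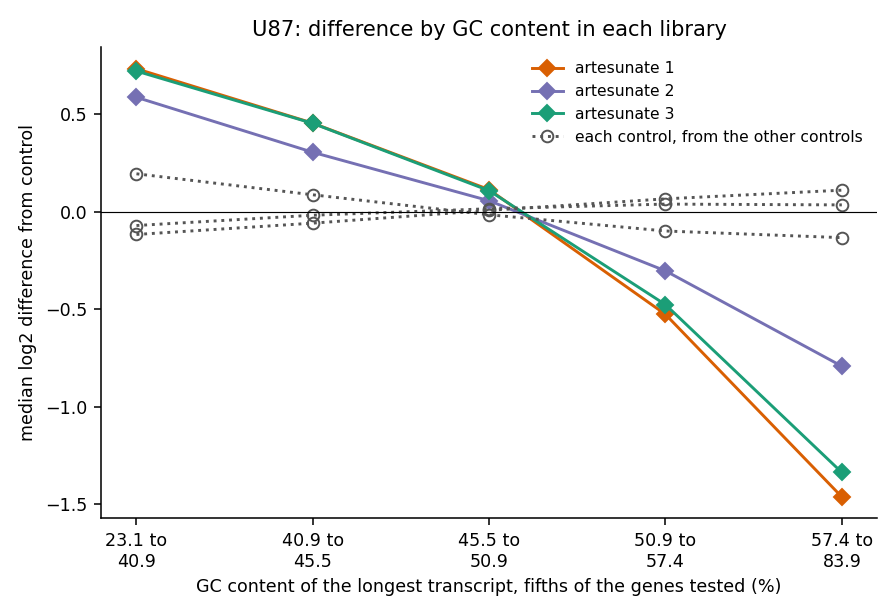
Median log2 difference from the control mean (y) in 5 groups of the tested genes by GC content of the longest transcript (x, percent), for each artesunate library (coloured lines) and for each control against the other controls (dotted grey lines). All 3 artesunate lines go down from the lowest to the highest GC group, library 2 least (0.59 to -0.79), and the control lines stay between -0.13 and 0.20.

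Most transcription factors and regulators of the integrated stress response rose. Of 20 genes tested 14 rose and 1 fell, with a median log2 fold change of 1.08 and 1.12, 1.08 and 1.06 in artesunate libraries 1, 2 and 3. ATF4, the transcription factor at the centre of the response, stood at 162, 174 and 177 CPM in controls 1 to 3 and at 506, 571 and 549 CPM in artesunate libraries 1 to 3. The log2 fold change was 1.66 ± 0.09 (± its standard error, as in all values of this kind below), with an adjusted p of 4.9e-05 and no overlap between the groups. DDIT3, which encodes the stress factor CHOP, was at 39.4, 41.7 and 40.0 CPM in controls and 159, 149 and 170.4 CPM after artesunate, a rise of 1.98 ± 0.09 (adjusted p = 4.0e-05). TRIB3, a pseudokinase induced by ATF4 and CHOP, went from 19.3, 22.5 and 17.9 to 201, 241 and 210.2 CPM, the largest change of the list (3.45 ± 0.13, adjusted p = 3.4e-05). For these 3 genes the artesunate libraries lay close together and far above every control.

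GDF15, a secreted stress cytokine, SESN2, a brake on the growth kinase complex mTORC1, and CHAC1, which degrades glutathione, also rose, and were singled out after their values were seen. GDF15 rose by 3.27 ± 0.19. SESN2 rose by 2.33 ± 0.17. CHAC1 stood at 5.05, 7.76 and 4.88 CPM in controls and at 19.4, 50.5 and 18.5 CPM after artesunate, so artesunate library 2 lay well above the others (2.32 ± 0.44, corrected 3.55, adjusted p = 0.0037). The gene that fell was CEBPB, a partner of ATF4 on DNA, from 434, 438 and 420.1 to 213, 292 and 189.6 CPM (-0.90 ± 0.16, corrected 0.85 and called, adjusted p = 0.0027). After the correction 17 of the 20 genes were called higher, CEBPB among them. Without artesunate 2, 2 fell.

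Amino acid synthesis genes went both ways. Of 18 enzymes 8 rose and 7 fell (median 0.10, and from 0.0041 without control 1 to 0.34 without control 2, and 9 and 3 with a median of 0.48 after correction). ASNS, which makes asparagine, stood at 67.3, 66.9 and 67.4 CPM in controls and at 518, 465 and 583 CPM after artesunate, with no overlap and little spread within either group (2.96 ± 0.11, adjusted p = 3.4e-05). PSAT1 of serine synthesis went from 165, 141 and 147 to 1084, 1011 and 1074 CPM (2.81 ± 0.09, adjusted p = 3.4e-05). SHMT1, the cytosolic enzyme that turns serine into glycine, fell by 1.51 ± 0.10. PYCR3, an enzyme of proline synthesis, had the largest fall of the list (-3.39 ± 0.39, corrected -2.05, adjusted p = 4.8e-04).

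ATF4 with a C/EBP partner is known to act through a composite DNA element. Its core, TGATGNAA, was searched on both strands in the window from 250 bases before to 50 after the start that RefSeq gives on GRCh38.p14. This motif was present in 3.67% of 27305 promoters of that length. It was found in 6 of 13 synthetase promoters with a sequence (AARS, CARS, IARS, MARS, NARS and TARS, all of which rose), 4 of 20 of the transcription factor and regulator list, 4 of 20 amino acid transporters, 3 of 12 amino acid synthesis enzymes and 1 of 11 folate enzymes. Among the other genes named here, ASNS, SLC3A2 and CHAC1, which rose, held a match, as did SLC1A3, which fell. The promoters of ATF4, DDIT3, TRIB3, SESN2, GDF15, PSAT1 and MTHFD2, all of which rose, held none. Those of CEBPB, FARSA, SHMT1 and MTHFD1, which fell, held none either. A match is a run of letters and not a bound site.

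Cytosolic aminoacyl-tRNA synthetases, which charge tRNAs with their amino acids, rose in 13 of 20 cases and fell in 4 (median 0.73; 0.79, 0.60 and 0.76 by artesunate library). AARS was at 221, 262 and 252 CPM in controls and 419.9, 414 and 406 CPM after artesunate, a rise of 0.75 ± 0.09, corrected 1.14 (adjusted p = 5.7e-04). CARS, which charges cysteine tRNA, had the smallest p of those that rose, and went from 88.4, 83.4 and 86.9 to 308, 274 and 301 CPM (1.77 ± 0.09, adjusted p = 4.6e-05). FARSA, the alpha subunit of the phenylalanine enzyme, fell by 1.88 ± 0.11, corrected -0.77. The changes of the list ran from -1.94 in VARS, the valine enzyme, to 1.85 in GARS, the glycine enzyme. Without control 2 or artesunate 1, 2 fell. Of 17 mitochondrial synthetases 3 rose and 7 fell (median -0.26, corrected -0.07). IARS2 rose by 0.34 ± 0.07, not called after correction, and VARS2 fell by 2.02 ± 0.22, corrected -1.07.

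Amino acid transporters contained the largest rise among called protein-coding genes with an average log2 CPM of at least 4 and no overlap. SLC7A11 (ENSG00000151012, chromosome 4, 138164097 to 138242349, GRCh38), the cystine importer that feeds glutathione synthesis, stood at 35.1, 25.1 and 27.8 CPM in controls and at 1265, 1314 and 1364 CPM after artesunate. This was a fold change of 44.8 (log2 5.48 ± 0.15, adjusted p = 2.6e-05), and all artesunate libraries lay within a narrow range. SLC3A2, the heavy chain that SLC7A11 pairs with at the membrane, rose from 137, 153 and 135 to 256, 503 and 356 CPM (1.39 ± 0.23, corrected 2.18, adjusted p = 0.002), highest in artesunate library 2. Of 22 transporters 12 rose and 2 fell (median 0.82). SLC1A3, the glial glutamate transporter, fell from 60.02, 57.9 and 68.0 to 45.0, 35.0 and 34.5 CPM (-0.70 ± 0.14).

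Folate one-carbon enzymes, which pass on single carbons for nucleotides and methyl groups, went both ways. MTHFD2, the mitochondrial dehydrogenase and cyclohydrolase, went from 100.3, 101 and 109 to 574, 418 and 608 CPM (2.36 ± 0.15, adjusted p = 7.9e-05). MTHFD1, the cytosolic counterpart, went the other way, from 384, 412 and 396 to 161, 148 and 164 CPM (-1.33 ± 0.08, adjusted p = 7.1e-05). The groups did not overlap in either gene. Over the list, 3 of 15 rose and 7 fell (median -0.37, corrected -0.18).

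**Figure D3:**
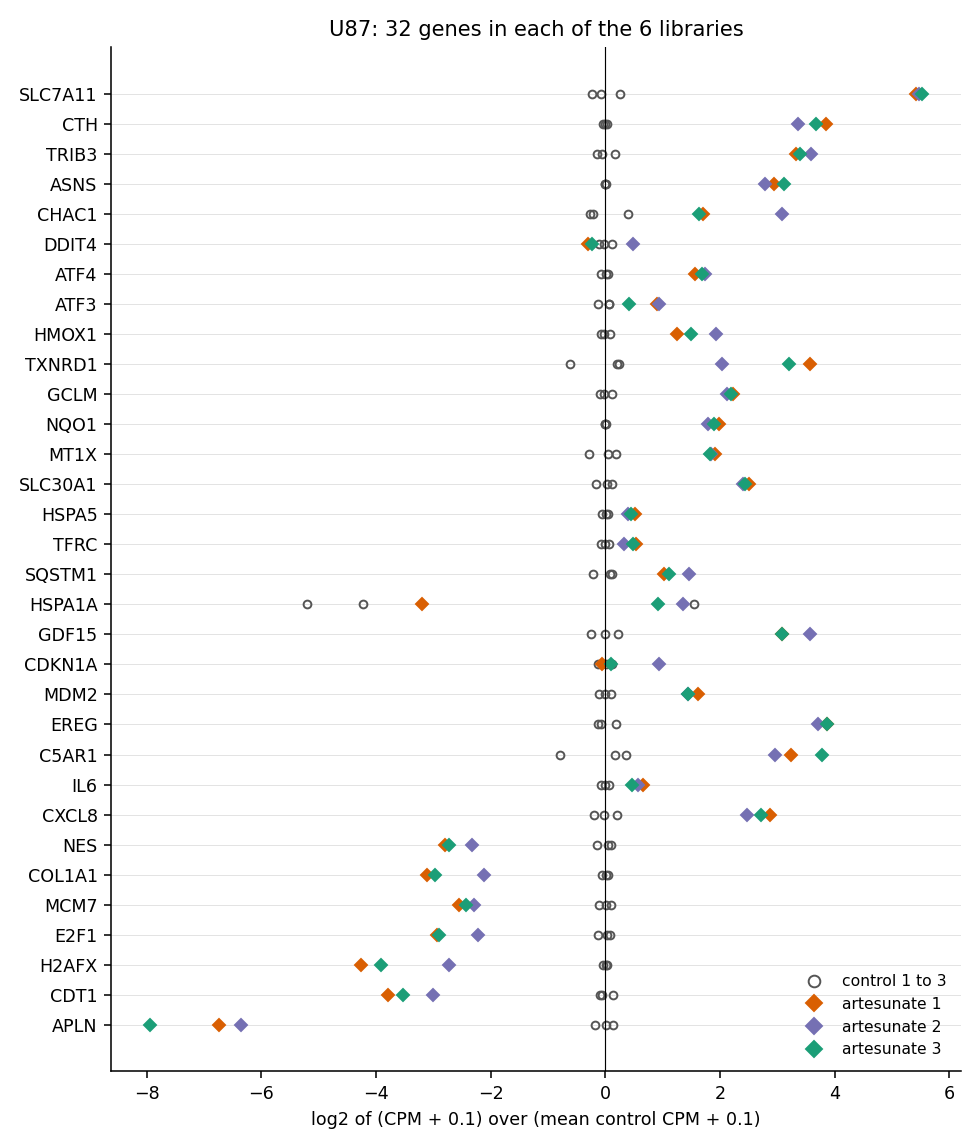
The log2 of (CPM + 0.1) over (mean control CPM + 0.1) for 32 genes (x), with open circles for controls 1 to 3 and diamonds for artesunate libraries 1 to 3. SLC7A11 is at the top with 3 coinciding diamonds, CHAC1, HMOX1 and CDKN1A have artesunate library 2 to the right of the others, and APLN, CDT1 and H2AFX lie far to the left.

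NRF2 targets rose in most cases. Of 24 genes 18 rose and 1 fell (median 1.57; 1.24, 1.53 and 1.56 by artesunate library), and 22 rose after correction. Without artesunate 2, 4 fell. NQO1, the quinone reductase often used as a readout of NRF2, stood at 144, 143 and 146 CPM in controls and 574, 500.4 and 540.5 CPM after artesunate (1.90 ± 0.09, adjusted p = 3.6e-05). HMOX1, the heme-degrading oxygenase, rose from 142, 149 and 160.4 to 359, 576 and 425 CPM (1.59 ± 0.18, corrected 2.45, adjusted p = 4.0e-04), with artesunate library 2 highest. SLC7A11 also stands in this list. The NRF2-type motif TGACNNNGC on either strand was present in 5 of 20 promoters of the list with a sequence, against 13.6% of all promoters. Of the genes of the list named here, GCLM and TXNRD1 held a match and NQO1 held none.

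Genes that make cysteine and glutathione held some of the largest rises. CTH, which makes cysteine from cystathionine, was at 9.71, 9.22 and 9.51 CPM in controls and 138, 97.9 and 123 CPM after artesunate (3.66 ± 0.15, adjusted p = 3.4e-05). GCLM, the modifier subunit of the enzyme that limits glutathione synthesis, went from 54.7, 49.6 and 47.3 to 238, 222 and 232 CPM (2.19 ± 0.10, adjusted p = 3.5e-05). Every artesunate library lay far above every control in both genes. GPX4, the selenoenzyme that reduces lipid hydroperoxides, stood at 104, 126 and 122 CPM in controls and 79.4, 109.7 and 97.9 CPM after artesunate, overlapped, and was not called (-0.30 ± 0.14, corrected 1.03 and called, adjusted p = 0.11). GPX4 was called without artesunate 2 (-0.40). GPX4 was also called with limma voom and with the replicate number as a block. GGT1, which breaks down extracellular glutathione, fell by 0.95 ± 0.16, corrected 0.32 and not called. In all 8 of 18 genes rose and 6 fell (median 0.14, and from 0.02 without artesunate 1 to 0.23 without artesunate 3), and 11 and 2 after correction (median 0.94). Without control 2 or control 3, 3 fell.

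Peroxiredoxins, superoxide dismutases and thioredoxin genes, which remove peroxides and superoxide, rose in 12 of 18 cases and fell in 5 (median 0.47), and 10 and 1 were called so after correction. TXNRD1, the cytosolic thioredoxin reductase, had the largest change of the list. It stood at 319, 181 and 327 CPM in controls and at 3289, 1136 and 2528 CPM after artesunate, where library 2 was lowest by far (3.07 ± 0.42, adjusted p = 9.3e-04). TXNIP, the inhibitor of thioredoxin, rose by 1.10 ± 0.08. CAT, catalase, rose by 0.40 ± 0.11, corrected 0.17 and not called. The call of CAT was lost without control 2, control 3 and artesunate 3 (0.39, 0.40 and 0.37 respectively). PRDX5 fell by 1.15 ± 0.15, corrected 0.05 and not called.

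Iron and heme genes gave mixed counts. Of 13 iron-handling genes 9 rose and 2 fell (median 0.47, corrected 0.25). FTH1, the ferritin heavy chain that stores iron, went from 3342, 3351 and 3233 to 4953, 5194 and 5021 CPM (0.61 ± 0.07, adjusted p = 3.8e-04). TFRC, the transferrin receptor that imports iron, went from 672, 638 and 609 to 928, 801 and 894 CPM (0.45 ± 0.09, corrected -0.03 and not called, adjusted p = 0.0042). Both genes were higher in all 3 artesunate libraries than in any control. CYBRD1, a ferric reductase of the cell surface, rose by 1.65 ± 0.13, and PCBP1, an iron chaperone, fell by 1.17 ± 0.08, corrected -0.59. Of 18 genes of heme synthesis and breakdown 3 rose and 8 fell (median -0.14, corrected -0.01, and from -0.36 without artesunate 2 to -0.05 without artesunate 3), and 5 and 6 after correction. Without artesunate 2, 5 rose. ALAS1, the first and limiting enzyme of heme synthesis, rose by 0.25 ± 0.08, corrected 0.50 (adjusted p = 0.039), UROD, a later enzyme of it, fell by 0.95 ± 0.10, corrected -0.62, and BACH1, a heme-sensing repressor of HMOX1, rose by 1.76 ± 0.13, corrected 1.09. The call of ALAS1 was lost without control 1, control 2, control 3, artesunate 1 and artesunate 3 (0.25, 0.24, 0.23, 0.26 and 0.22 respectively). The call of ALAS1 was also not made with library totals in place of TMM, no filter on low counts, DESeq2 and the replicate number as a block.

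Of 17 genes that control lipid peroxidation 6 rose and 2 fell (median 0.16; 9 and 4 after correction, median 0.59). PTGS2, the inducible cyclooxygenase, rose from 63.7, 52.3 and 57.9 to 196, 199.5 and 192 CPM (1.76 ± 0.10, corrected 1.05, adjusted p = 6.2e-05). DHODH, which makes pyrimidines in mitochondria, fell by 1.38 ± 0.18. Without artesunate 2, 4 fell. Metallothioneins and zinc transporters, which buffer and move zinc, rose in 11 of 16 genes and fell in 3 (median 0.65), and 9 and 1 were called so after correction. MT1F went from 19.8, 21.5 and 20.8 to 99.5, 104 and 99.9 CPM (2.29 ± 0.09, adjusted p = 3.4e-05), while MT2A went from 3474, 3309.5 and 3777 to 4234, 5192 and 6229 CPM (0.57 ± 0.14, corrected 0.97, adjusted p = 0.012). The call of MT2A was not made with limma-trend on log2(FPKM + 1) without a filter. Metallothionein genes are near-identical copies, so reads may be split among them and single values are uncertain. SLC30A1, the zinc exporter, had the largest change of the list, from 55.0, 45.0 and 51.3 to 286, 267 and 275 CPM (2.45 ± 0.11).

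The promoter of MT2A is shown because it carries several matches to the core of the metal response element, TGCACNC or TGCGCNC on both strands, which the zinc-sensing factor MTF1 binds. It lies at chr16:56608334-56608633 on the plus strand (RefSeq, GRCh38.p14), with the 8 matches in capitals.
MT2A: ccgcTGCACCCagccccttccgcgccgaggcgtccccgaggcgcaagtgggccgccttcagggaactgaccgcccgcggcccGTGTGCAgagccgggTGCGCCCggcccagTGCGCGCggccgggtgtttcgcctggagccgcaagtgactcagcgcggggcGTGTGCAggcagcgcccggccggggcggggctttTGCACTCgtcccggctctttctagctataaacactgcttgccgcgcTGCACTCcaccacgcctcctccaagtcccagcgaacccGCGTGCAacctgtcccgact
The motif was present in 29.3% of all promoters and in 5 of 12 of this list. MTF1 itself rose by 0.79 ± 0.09, and was singled out after its value was seen.

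Genes of protein folding gave mixed counts. Of 24 endoplasmic reticulum chaperones and genes of the unfolded protein response 12 rose and 5 fell (median 0.31). HSPA5, the main chaperone of that compartment, rose from 1518, 1493 and 1420.4 to 2118, 1936 and 2014 CPM (0.45 ± 0.07, corrected 0.26, adjusted p = 0.002). DNAJB9, its cochaperone, rose by 2.10 ± 0.11, and PDIA4, a disulfide isomerase, fell by 1.16 ± 0.08. Among 18 cytosolic heat shock genes 4 rose and 5 fell (median -0.10, corrected -0.04, and from -0.11 without artesunate 1 to -0.02 without artesunate 2), with HSPH1 up (0.82 ± 0.12, corrected 0.24) and BAG3 down (-1.14 ± 0.10, corrected -0.35).
HSPA1A, the inducible Hsp70, stood at 119, 2.08 and 1.01 CPM in controls and at 4.35, 104 and 76.6 CPM after artesunate, so control 1 and artesunate libraries 2 and 3 were high and the other libraries low, and it was not called (0.60 ± 1.61, corrected 1.45, adjusted p = 0.77). HSPA1A was called without control 1 (5.30). The sign for HSPA1A turned without artesunate 2 (-0.0049). Its near-identical copy HSPA1B can share its reads.

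Autophagy and lysosome genes rose in 18 of 32 cases and fell in 9 (median 0.48; 21 and 5 after correction). SQSTM1, the p62 cargo receptor, went from 742, 929 and 912 to 1744, 2373 and 1869 CPM (1.21 ± 0.15, corrected 2.10, adjusted p = 5.5e-04). ATG14, a subunit of the kinase complex that starts autophagosomes, rose by 1.22 ± 0.09, and MCOLN1, a lysosomal calcium channel, fell by 1.31 ± 0.16, corrected -0.04 and not called. MAP1LC3B, the ubiquitin-like protein of autophagosomes, had the largest rise (2.63 ± 0.39) and was singled out after its value was seen. Proteasome subunits rose in 13 of 31 cases and fell in 5 (median 0.18, corrected 0.03, and from 0.09 without artesunate 3 to 0.30 without artesunate 2), with PSMB1 up (0.84 ± 0.13, corrected 0.31) and PSMD3 down (-1.14 ± 0.10). Without control 2, 3 fell.

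Ribosome biogenesis and RNA polymerase I genes fell in 18 of 28 cases and rose in 5 (median -0.72, corrected -0.41; -0.69, -0.72 and -0.65 by artesunate library). FBL, the methyltransferase of ribosomal RNA, went from 139, 163 and 157 to 48.8, 53.9 and 55.4 CPM (-1.54 ± 0.10, adjusted p = 9.0e-05), and NCL, nucleolin, went from 667, 669 and 687 to 440.0, 324 and 425 CPM (-0.77 ± 0.12, adjusted p = 0.0019). RRN3, an initiation factor of RNA polymerase I, rose by 0.76 ± 0.11, corrected 0.29. After correction 3 of the list rose and 17 fell. Without control 2 or control 3, 3 rose. Cytosolic ribosomal proteins rose in 9 of 44 cases and fell in 15 (median -0.02, corrected 0.05, and from -0.10 without artesunate 1 to 0.08 without artesunate 2), from RPL8, down (-2.11 ± 0.15, corrected -0.74), to RPL15, up (0.63 ± 0.07), the members of smallest p in each direction, and 14 rose and 17 fell after correction. Without control 2, 5 rose. Translation initiation factors rose in 12 of 29 cases and fell in 7, and 7 and 11 after correction. EIF2S2, a subunit of the factor that the stress kinases target, rose by 1.21 ± 0.10, and EIF3G fell by 2.12 ± 0.10, corrected -1.01. EIF4EBP1, the translation repressor that ATF4 is known to induce, fell by 0.51 ± 0.11, corrected 1.19 and called (adjusted p = 0.0066).

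Mitochondrially encoded mRNAs differed between the artesunate libraries more than any other of the 51 lists. All 13 are messages for respiratory chain subunits made inside the organelle. Their median log2 difference from the controls was -1.85, -0.20 and -1.61 in artesunate libraries 1, 2 and 3. MT-CO3, a subunit of cytochrome c oxidase, stood at 5495, 5002 and 5132 CPM in controls and 1122, 2097 and 1201 CPM after artesunate (-1.82 ± 0.24, adjusted p = 7.6e-04). MT-CO1, another subunit of it, went from 10334, 9492 and 9493 to 6683, 8513 and 6813 CPM (-0.41 ± 0.11, adjusted p = 0.015). The call of MT-CO1 was lost without artesunate 3 (-0.36). The call of MT-CO1 was also not made with all 3 limma-trend fits of FPKM. MT-ATP6, a subunit of ATP synthase, stood at 1198, 1138 and 1165 CPM in controls and 292, 3400.2 and 358 CPM after artesunate, below every control in libraries 1 and 3 and above every control in library 2. It was not called (0.21 ± 0.87, corrected -0.02 and not called, adjusted p = 0.85). The sign for MT-ATP6 turned without artesunate 2 (-1.84).
With all libraries 6 of the 13 fell and 0 rose (median -0.99). Mitochondrial messages called upward numbered 0 by edgeR, 0 by DESeq2, 0 by limma voom and 0 by limma-trend, and 0 had an unadjusted edgeR p under 0.05. Without artesunate 3, 2 fell, and without control 1 or control 3, 3 fell, and without artesunate 2, 13 fell. The median without artesunate library 2 was -1.72. Nuclear-encoded respiratory chain subunits rose in 8 of 34 cases and fell in 10, among them NDUFA4, up (1.07 ± 0.11, corrected 0.54), and CYC1, down (-1.41 ± 0.14, corrected 0.15 and not called). Mitochondrial ribosomal proteins rose in 9 of 30 and fell in 10, with MRPS10 up (0.77 ± 0.10, corrected 0.31) and MRPL12 down (-1.96 ± 0.09, corrected -0.37 and not called). After correction 4 rose and 10 fell. Without control 3, 4 rose. Of 18 genes of mitochondrial DNA upkeep 4 rose, among them the chaperone HSPA9 (1.11 ± 0.10), and 7 fell, among them the coactivator PPARGC1B (-1.33 ± 0.13). Without artesunate 2, 7 rose.

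**Figure D4:**
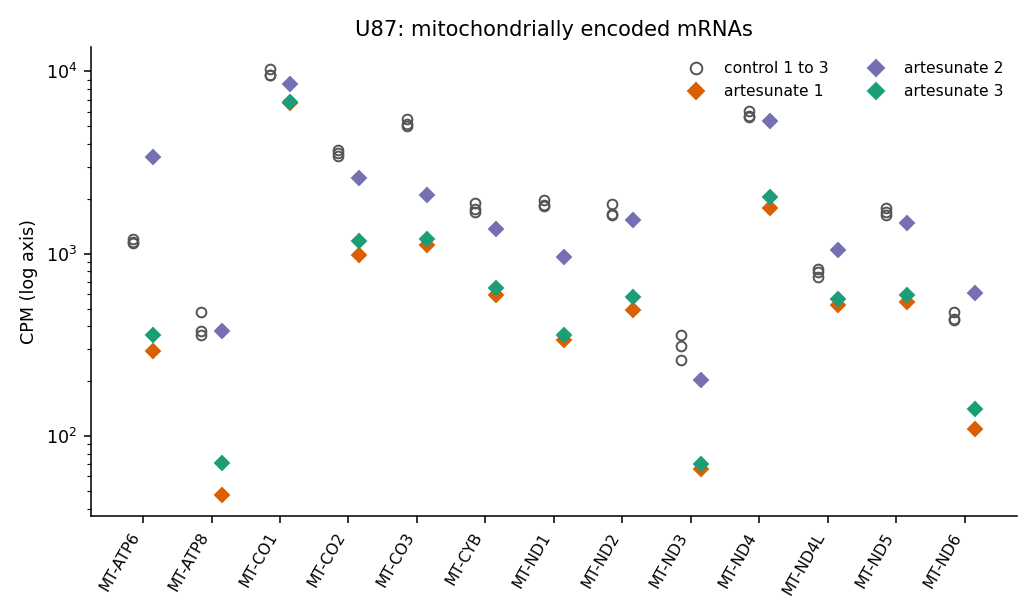
CPM (y, log axis) of the 13 mitochondrially encoded mRNAs (x), with open circles for controls 1 to 3 and diamonds for artesunate libraries 1 to 3. Libraries 1 and 3 lie below every control for each gene, and library 2 lies above those 2 for every gene, near or under the controls for most and above them for MT-ATP6 and 2 others.

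Genes that drive DNA replication mostly fell. Of 32 polymerase, clamp and nucleotide-supply genes 28 fell and 0 rose (median -1.03; -1.02, -1.23 and -1.01 by artesunate library), and 30 fell after correction. Genes of this list called upward numbered 0 by edgeR, 0 by DESeq2, 1 by limma voom and 0 by limma-trend, and 0 had an unadjusted edgeR p under 0.05. FEN1, the flap endonuclease of lagging-strand synthesis, stood at 166, 177 and 168 CPM in controls and 36.5, 34.9 and 34.3 CPM after artesunate (-2.27 ± 0.09, adjusted p = 3.4e-05). PCNA, the sliding clamp, went from 147, 144 and 145 to 91.9, 79.0 and 96.3 CPM (-0.70 ± 0.10, adjusted p = 0.0011). The MCM helicase and its loaders, which license origins, fell in 14 of 20 cases and rose in 2 (median -1.14). MCM5 went from 255, 299.5 and 285 to 34.5, 44.5 and 39.1 CPM (-2.83 ± 0.13, adjusted p = 3.6e-05), and MCM2 from 231, 220.4 and 210.1 to 41.1, 61.9 and 58.0 CPM (-2.04 ± 0.16, corrected -1.17). CDT1, which loads the helicase, fell most, from 71.3, 81.2 and 69.3 to 5.27, 9.16 and 6.30 CPM (-3.42 ± 0.22, corrected -1.85, adjusted p = 7.1e-05). ORC4, of the origin recognition complex, rose by 0.84 ± 0.09, corrected 0.13 and not called, and after correction 1 of the list rose and 16 fell.

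The promoter of CDT1 is shown because it holds adjoining matches to the E2F-type words TTTCCCG and TTTGGCG, which were searched on both strands, just before the start. E2F factors, held back by the retinoblastoma protein, are known to drive genes of S phase. The window lies at chr16:88803539-88803838 on the plus strand (RefSeq, GRCh38.p14), with the 2 matches in capitals.
CDT1: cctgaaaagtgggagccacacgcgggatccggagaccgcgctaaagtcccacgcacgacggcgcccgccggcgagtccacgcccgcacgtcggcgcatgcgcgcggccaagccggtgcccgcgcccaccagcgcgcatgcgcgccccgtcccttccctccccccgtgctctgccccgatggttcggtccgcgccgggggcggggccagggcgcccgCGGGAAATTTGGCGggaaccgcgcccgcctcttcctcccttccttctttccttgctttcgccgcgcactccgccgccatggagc
The matches begin at bases -34 and -27 from the start. These words were present in 6.11% of all promoters and in 9 of 18 of the licensing list with a sequence, namely MCM3, MCM6, MCM7, MCM8, MCM10, CDC6, CDT1 and CDC45, which fell, and ORC3, which rose. E2F1, the founding member of the family, fell by 2.66 ± 0.21, corrected -1.34 and was singled out after its value was seen.

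The G1 cyclins, inhibitors and E2F factors rose in 4 and fell in 12 of 20 genes (median -0.79). Without control 2, control 3 or artesunate 3, 2 rose. MYBL2, an E2F target that drives later cell cycle genes, went from 218, 246 and 235 to 33.3, 50.5 and 35.8 CPM (-2.55 ± 0.17, corrected -1.42, adjusted p = 8.9e-05). RBL2, a relative of the retinoblastoma protein that holds E2F targets down in resting cells, went from 82.1, 72.8 and 78.1 to 154, 143 and 141 CPM (0.91 ± 0.09, corrected 0.53, adjusted p = 2.9e-04). CDKN1A, the CDK inhibitor p21, stood at 188, 223 and 207 CPM in controls and at 198, 395 and 221 CPM after artesunate, above the controls only in library 2, and was not called (0.40 ± 0.25, corrected 1.24 and called, adjusted p = 0.21). MYC was spread within both groups, at 5.96, 42.4 and 33.5 CPM in controls and 25.6, 3.25 and 2.08 CPM after artesunate, and was not called (-1.41 ± 1.02, corrected -0.88, adjusted p = 0.27). MYC was called without artesunate 1 (-3.36).

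Mitosis genes fell in 22 of 35 cases and rose in 0 (median -0.50), and 30 fell after correction (median -0.83). Mitosis genes called upward numbered 0 by edgeR, 0 by DESeq2, 1 by limma voom and 0 by limma-trend, and 1 had an unadjusted edgeR p under 0.05. Without artesunate 2, 1 rose. CDC20, which switches on the ubiquitin ligase that starts anaphase, went from 215, 247 and 235 to 50.02, 59.9 and 56.1 CPM (-2.07 ± 0.11, corrected -1.21, adjusted p = 4.9e-05). MKI67, a widely used proliferation marker, stood at 201, 418 and 212 CPM in controls, with control 2 high, and 126, 104 and 120.0 CPM after artesunate (-1.25 ± 0.28, adjusted p = 0.0078). DNA repair and Fanconi genes fell in 18 of 39 cases and rose in 6 (median -0.29, and from -0.37 without control 3 to -0.17 without control 1), and 27 fell and 2 rose after correction (median -0.67). FANCA of the Fanconi core fell by 1.85 ± 0.12, and ATM, the kinase of double-strand breaks, rose by 0.87 ± 0.11, corrected 0.17 and not called. Of 19 histone genes 5 rose and 6 fell. Without control 2 or artesunate 1, 3 rose. H2AFX, the variant phosphorylated at DNA breaks, fell from 120.0, 126 and 124 to 6.34, 18.6 and 8.07 CPM (-3.49 ± 0.38, corrected -1.83), and H2AFZ, another variant, rose by 0.57 ± 0.13. HIST1H2BK fell by 1.70 ± 0.14, corrected -0.41 and not called, and H3F3A rose by 1.24 ± 0.21, corrected 0.72. Replication-dependent histone messages mostly lack a poly(A) tail, and several histone genes have near-identical copies, so their single values are uncertain.

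**Figure D5:**
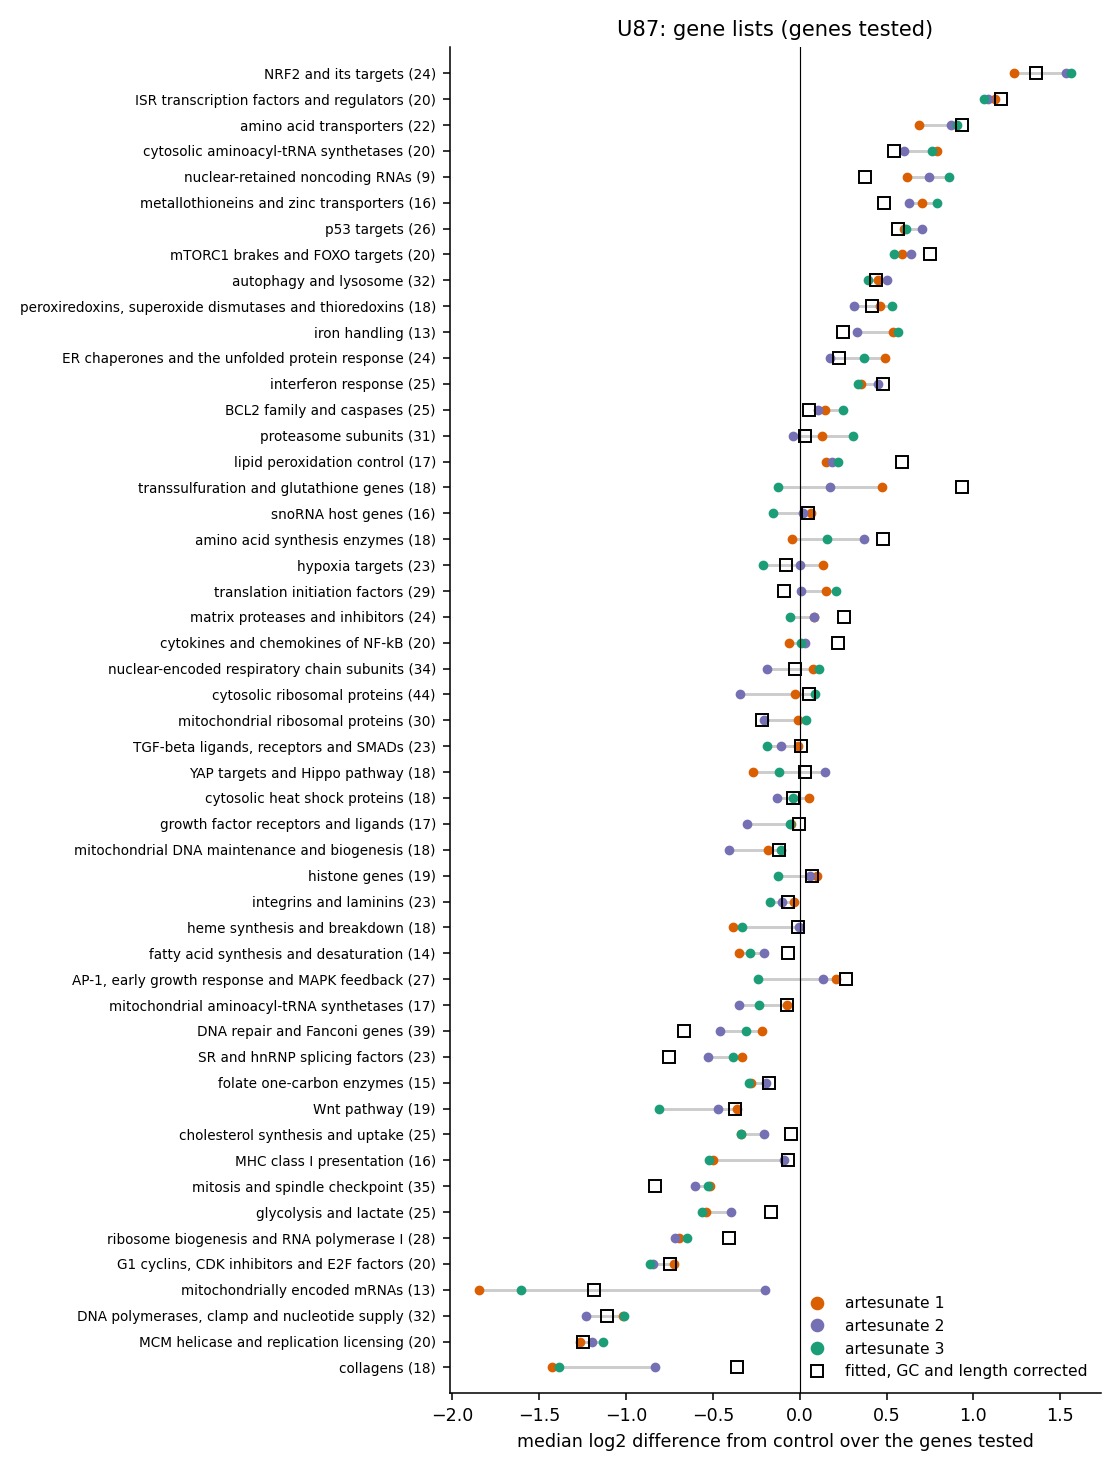
Median log2 difference from the control mean over the tested genes of each of 51 lists (y, number of genes in brackets), in artesunate libraries 1, 2 and 3 (coloured points), beside the median fitted after the GC and length correction (open squares). NRF2 targets and the stress response lead at the top, replication lists and collagens stand at the bottom, the library points lie furthest apart for the mitochondrially encoded mRNAs, and the corrected value of the collagens is nearer to 0.

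Targets of p53, which answers DNA damage and other stress, rose in 13 of 26 cases and fell in 6 (median 0.62; 0.60, 0.70 and 0.61 by artesunate library), and 16 and 2 after correction. MDM2, the ubiquitin ligase that p53 induces against itself, went from 102, 94.1 and 88.3 to 293, 258 and 257 CPM (1.51 ± 0.10, corrected 0.97, adjusted p = 8.3e-05). TP53INP1 had the smallest p of those that rose, from 18.1, 16.4 and 16.8 to 86.8, 87.6 and 85.7 CPM (2.34 ± 0.10, adjusted p = 3.4e-05). BAX, the pore-forming death effector, fell from 46.7, 52.9 and 55.9 to 15.4, 24.2 and 20.1 CPM (-1.38 ± 0.18, corrected -0.43, adjusted p = 7.6e-04). GDF15, also in this list, is a target of ATF4 and CHOP as well. Of 25 BCL2 family and caspase genes 6 rose and 5 fell. Without control 2, 2 fell, and without control 3 or artesunate 1, 3 fell. MCL1, an inhibitor of cell death, rose by 0.41 ± 0.10, corrected 0.15 and not called. PMAIP1, the death-promoting partner NOXA, rose by 2.48 ± 0.31 and was singled out after its value was seen.

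Brakes on mTORC1 and targets of FOXO factors, which act when growth signals are low, rose in 13 of 20 cases and fell in 2 (median 0.59), and neither fall was called after correction. FBXO32, a ubiquitin ligase, went from 23.9, 24.9 and 24.2 to 111, 111 and 116 CPM (2.21 ± 0.09, adjusted p = 3.4e-05), and KLHL24, a substrate adaptor, had the largest change, from 8.57, 9.29 and 3.11 to 111, 92.4 and 105 CPM (3.87 ± 0.37). TSC2, part of the complex that restrains mTORC1, fell by 0.90 ± 0.14, corrected 0.17 and not called. Glycolysis and lactate genes rose in 5 of 25 cases and fell in 15 (median -0.51), while after correction 5 rose and 10 fell (median -0.16). SLC2A3, a glucose transporter, went from 75.4, 68.1 and 71.3 to 331, 249.9 and 281 CPM (2.00 ± 0.12, adjusted p = 7.0e-05), and PFKFB4, which sets the level of a glycolytic activator, from 218, 222 and 214 to 41.5, 53.3 and 37.5 CPM (-2.31 ± 0.14, adjusted p = 7.0e-05). HK2, which phosphorylates glucose, rose by 0.42 ± 0.09. LDHA, which makes lactate, was not called (-0.16 ± 0.11, corrected -0.46 and called, adjusted p = 0.25).

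Of 23 hypoxia targets 7 rose and 7 fell, with BNIP3L, a mitophagy receptor, up (1.99 ± 0.19) and BHLHE40 down (-0.93 ± 0.10). Without control 3, 4 rose. VEGFA, the angiogenic growth factor, stood at 609, 680.4 and 672 CPM in controls and 502, 482 and 249.9 CPM after artesunate, below every control in each library and lowest in library 3, and was not called (-0.67 ± 0.25, corrected -0.25, adjusted p = 0.051). VEGFA was called without artesunate 1, artesunate 2 and artesunate 3 (-0.84, -0.80 and -0.41 respectively). VEGFA was also called with library totals in place of TMM, DESeq2, limma voom and all 12 libraries in the fit. The same held with the replicate number as a block, limma-trend on log2(FPKM + 1) and limma-trend on log2(FPKM + 0.1). Cholesterol genes rose in 10 of 25 cases and fell in 12 (median -0.40; -0.05 after correction). INSIG1, which holds the SREBP factors back, went from 165, 202 and 192 to 974, 912 and 913 CPM (2.32 ± 0.10, adjusted p = 3.6e-05), while EBP, a sterol isomerase, fell by 1.09 ± 0.11, corrected -0.70. HMGCS1, an early enzyme of the pathway, stood at 86.6, 64.3 and 75.1 CPM in controls and 166, 130.2 and 73.0 CPM after artesunate and was not called (0.71 ± 0.28, corrected 0.17, adjusted p = 0.066). HMGCS1 was called without artesunate 3 (0.98). HMGCS1 was also called with DESeq2 and all 12 libraries in the fit. Fatty acid genes rose in 1 and fell in 6 of 14, with FADS1 up (0.31 ± 0.09) and ACLY down (-0.76 ± 0.10), and 5 rose and 5 fell after correction. Without artesunate 2, 2 rose. The call of FADS1 was lost without control 3, artesunate 1 and artesunate 3 (0.25, 0.27 and 0.29 respectively). The call of FADS1 was also not made with no filter on low counts. SCD, the main desaturase, was not called (0.13 ± 0.08, corrected -0.01 and not called, adjusted p = 0.18). SCD was called with limma voom.

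Of 20 cytokines, chemokines and NF-kB genes 7 rose and 6 fell, shares near those of all genes, and 9 and 3 after correction. Without artesunate 3, 3 fell. CXCL8, the neutrophil chemokine interleukin 8, went from 161, 137 and 122 to 1029, 774 and 923 CPM (2.70 ± 0.15, adjusted p = 5.9e-05), with every artesunate library far above the controls. NFKBIA, the inhibitor that NF-kB induces against itself, fell from 154, 144 and 149.7 to 77.5, 66.3 and 79.6 CPM (-1.003 ± 0.10, corrected -0.65, adjusted p = 2.9e-04). Interferon response genes rose in 9 of 25 cases and fell in 3 (median 0.26; 12 and 6 after correction, median 0.48), with PARP14 up (1.72 ± 0.13) and OAS3 down (-1.14 ± 0.11, corrected -0.69). Without artesunate 2, 5 fell. MHC class I genes rose in 4 and fell in 6 of 16. B2M, the light chain, was spread within both groups, at 431, 520.1 and 702 and 1404, 906 and 749.7 CPM, and rose by 0.89 ± 0.27, corrected 0.38 and not called (adjusted p = 0.024). The call of B2M was lost without control 1, control 2 and artesunate 1 (0.73, 0.85 and 0.59 respectively). The call of B2M was also not made with limma voom and all 12 libraries in the fit. Nor was it made with the replicate number as a block and limma-trend on log2(FPKM + 1) without a filter. ERAP2, which trims peptides, rose by 0.44 ± 0.11, corrected -0.11 and not called, and TAPBP, which helps load them, fell by 1.01 ± 0.14, corrected -0.19. Without control 1 or control 2, 2 rose.

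AP-1, early growth response and MAPK feedback genes rose in 12 of 27 cases and fell in 7, and 13 and 4 after correction. JUN, a subunit of AP-1, fell from 462, 507 and 469 to 151, 209 and 160.2 CPM (-1.47 ± 0.14, corrected -0.76, adjusted p = 2.2e-04), FOSL1, its partner, fell by 2.01 ± 0.19, corrected -0.96, and ETV5, an ERK-induced factor, rose by 1.52 ± 0.08. FOS was low and not called (0.49 ± 0.31, corrected 0.80, adjusted p = 0.21). YAP targets and Hippo pathway genes rose in 7 and fell in 7 of 18, with LATS1, a Hippo kinase, up (1.44 ± 0.11, corrected 0.82), AXL, a receptor kinase, down (-1.40 ± 0.09) and CTGF down (-0.49 ± 0.11, corrected -0.28). TGF-beta genes rose in 8 and fell in 10 of 23, with BMPR2 up (1.17 ± 0.13, corrected 0.41) and ID3 down (-2.14 ± 0.14, corrected -1.36), and 5 rose after correction. Without control 2 or control 3, 3 rose, and without control 1, artesunate 1 or artesunate 3, 5 rose. Wnt genes rose in 4 and fell in 9 of 19, with GSK3B up (1.07 ± 0.09, corrected 0.59) and the secreted inhibitor DKK1 down (-1.92 ± 0.17). Growth factor genes rose in 6 and fell in 5 of 17. EREG, a ligand of the EGF receptor, went from 184, 155 and 148 to 2382, 2134 and 2372 CPM (3.82 ± 0.12, adjusted p = 2.6e-05), EGFR itself fell by 0.38 ± 0.07 and HGF fell by 1.04 ± 0.16, corrected -1.81.

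Collagens fell in 12 of 18 cases and rose in 0 (median -1.20; -1.43, -0.83 and -1.38 by artesunate library). Their median GC content was 59.6%, and after correction 9 fell and 3 rose (median -0.36). Collagens called upward numbered 0 by edgeR, 0 by DESeq2, 0 by limma voom and 0 by limma-trend, and 0 had an unadjusted edgeR p under 0.05. COL1A1, a chain of type I collagen, went from 1013, 1040.2 and 962 to 117, 232 and 128 CPM (-2.66 ± 0.26, corrected -1.58, adjusted p = 2.7e-04), with library 2 the least changed. COL27A1 had the smallest p (-2.41 ± 0.20, corrected -1.29). Integrins and laminins rose in 5 and fell in 6 of 23. ITGAV rose by 0.91 ± 0.10, corrected 0.22, ITGA3 fell by 1.29 ± 0.19, corrected -0.15 and not called, and ITGB1 rose by 0.29 ± 0.10, corrected -0.28 and not called. The call of ITGB1 was lost without control 1, control 2, control 3, artesunate 1 and artesunate 3 (0.21, 0.32, 0.33, 0.27 and 0.25 respectively). The call of ITGB1 was also not made with library totals in place of TMM, no filter on low counts and DESeq2. Nor was it made with the replicate number as a block and all 3 limma-trend fits of FPKM. Without control 2 or artesunate 3, 3 fell. Matrix proteases and inhibitors rose in 10 and fell in 6 of 24, with ADAMTS5, an aggrecan-cleaving protease, up (1.71 ± 0.09, corrected 1.13). Without control 1, control 3 or artesunate 3, 5 rose, and without control 2, 6 rose. MMP2 was not called (-0.17 ± 0.08, corrected 0.55 and called, adjusted p = 0.099). MMP2 was called with library totals in place of TMM and limma voom.

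Splicing factors of the SR and hnRNP families rose in 4 and fell in 10 of 23 cases (median -0.34), and 19 fell after correction (median -0.75), when none of the rises was called. Without control 1, control 2, control 3, artesunate 1 or artesunate 3 no more than 2 of them rose. SRSF2 fell from 140.5, 115 and 128 to 52.2, 61.5 and 54.4 CPM (-1.19 ± 0.12, adjusted p = 2.5e-04), and TRA2B rose by 0.30 ± 0.08, corrected -0.23 and called. The call of TRA2B was lost without control 2, control 3 and artesunate 1 (0.31, 0.29 and 0.28 respectively). Of 16 host genes of small nucleolar RNAs 4 rose, among them GAS5 (0.93 ± 0.12, corrected 0.50), and 6 fell, among them SNHG15 (-1.39 ± 0.15). Of 9 long noncoding RNAs listed as nuclear-retained 5 rose and 0 fell, with NORAD, which is known to act mainly in the cytoplasm, up (0.93 ± 0.08, corrected 0.45), and 5 rose and 1 fell after correction. Long noncoding RNAs called downward numbered 0 by edgeR, 0 by DESeq2, 1 by limma voom and 0 by limma-trend, and 0 had an unadjusted edgeR p under 0.05. Without artesunate 2, 1 fell. MALAT1 stood at 77.9, 67.9 and 34.5 CPM in controls and 128, 184 and 199 CPM after artesunate (1.502 ± 0.31, corrected 0.92, adjusted p = 0.0053), and NEAT1, which builds paraspeckles, was not called (-0.35 ± 0.21, corrected -0.77 and called, adjusted p = 0.18). NEAT1 was called without artesunate 2 (-0.53). NEAT1 was also called with limma voom.

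Outside the lists, the largest changes among called protein-coding genes with an average log2 CPM of at least 4 and no overlap included rises of a few secreted and surface proteins. ECM2, a matrix protein, went from 2.16, 2.26 and 1.77 to 32.6, 26.4 and 33.6 CPM (3.90 ± 0.18), GPR1, a chemerin receptor, from 2.90, 10.8 and 8.81 to 96.9, 89.4 and 102 CPM (3.68 ± 0.42), and C5AR1, the receptor of complement C5a, from 13.5, 6.84 and 15.3 to 113, 93.4 and 165 CPM (3.38 ± 0.35). SLC16A6, of the monocarboxylate transporter family, rose by 3.41 ± 0.13 and CREBRF, a regulator of CREB3, by 3.32 ± 0.15. These rises had adjusted p from 3.4e-05 to 4.7e-04. SLC16A6 lies across ARSG, ECM2 across CENPP, GPR1 across GPR1-AS and CREBRF across CDC42P5, so reads there may be shared. The same holds for SLC7A11 with SLC7A11-AS1. It also holds for genes named below, PKMYT1 with PAQR4 and KREMEN2, TONSL with TONSL-AS1 and RECQL4 with AC084125.4.
APLN (chromosome X, 129645259 to 129654937), which encodes the vascular peptide apelin, fell most of the genes chosen in this way. It stood at 76.4, 95.4 and 87.8 CPM in controls and at 0.712, 0.960 and 0.252 CPM after artesunate (-7.09 ± 0.33, adjusted p = 3.6e-05). The artesunate values are near the level of a few counts and all lie far below the controls. CEND1, named for cell cycle exit, fell by 3.97 ± 0.44, corrected -2.32. FKBP2, a prolyl isomerase, fell by 3.69 ± 0.21, corrected -2.23. PKMYT1, a kinase that restrains CDK1, fell by 3.45 ± 0.43, corrected -1.81. TONSL, of replication-coupled repair, fell by 3.39 ± 0.33, corrected -2.05, and RECQL4, a helicase, fell by 3.36 ± 0.42, corrected -1.81. AP002990.1 fell by 3.29 ± 0.27, and its span covers parts of EEF1G and TUT1, with which it may share reads. The call of AP002990.1 was not made with all 12 libraries in the fit.

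Of the marker lists, 1 of 10 glioma and stem cell markers rose and 2 fell (3 and 5 after correction; summed level 6576 to 6966 CPM in controls and 5635 to 7274 CPM after artesunate). Without control 1 or control 3, 2 rose. NES, nestin, fell from 64.7, 76.7 and 74.3 to 10.3, 14.3 and 10.8 CPM (-2.60 ± 0.16, corrected -1.65, adjusted p = 6.9e-05), OLIG2 rose from 3.69, 2.26 and 3.68 to 6.41, 8.72 and 6.87 CPM (1.19 ± 0.25, corrected 2.12), VIM was not called (-0.04 ± 0.11, corrected -0.15, adjusted p = 0.75) and neither was GFAP (0.67 ± 0.42, corrected 1.37 and called, adjusted p = 0.21). Neuron markers rose in 2 and fell in 2 of 6 (2 and 1 after correction; summed level 90.4 to 112 CPM in controls and 84.2 to 107 CPM after artesunate), with SYT1 up (1.84 ± 0.24) and SNAP25 down (-0.87 ± 0.14, corrected -1.43). GFAP was called without control 1 (1.25). The sign for VIM turned without artesunate 2 (0.06). Of the markers of other cell types that were tested, CNP of oligodendrocytes fell by 1.81 ± 0.27 as the only member tested (summed level 84.6 to 128 CPM in controls and 23.4 to 43.3 CPM after artesunate), both tested microglia and leukocyte markers fell (CSF1R with -1.52 ± 0.17, corrected -0.71; 1 of them after correction; summed level 74.0 to 118 CPM in controls and 30.2 to 59.1 CPM after artesunate), 3 of 5 endothelial markers fell (ENG with -1.46 ± 0.15, corrected -0.05 and not called; summed level 129 to 134 CPM in controls and 54.4 to 60.6 CPM after artesunate) and neither of 2 epithelial markers was called (summed level 4.82 to 6.54 CPM in controls and 2.28 to 4.80 CPM after artesunate). Epithelial markers called upward numbered 0 by edgeR, 0 by DESeq2, 0 by limma voom and 0 by limma-trend, and 0 had an unadjusted edgeR p under 0.05. Epithelial markers called downward numbered 0 by edgeR, 0 by DESeq2, 1 by limma voom and 0 by limma-trend, and 0 had an unadjusted edgeR p under 0.05. Without artesunate 2, 1 of the epithelial markers fell. Without control 2, control 3, artesunate 2 or artesunate 3, 1 of the microglia and leukocyte markers fell. Fibroblast and mesenchymal markers rose in 2 and fell in 1 of 8 (summed level 1090.5 to 1127 CPM in controls and 1088 to 1232 CPM after artesunate), with DCN up (0.63 ± 0.08, corrected -0.06 and not called) and PDGFRB down (-0.9997 ± 0.20, corrected -0.23 and not called), and neither rise was called after correction. Without artesunate 1 or artesunate 2, 2 fell. The part of these marker levels in the results above was not tested.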

How the data were processed

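Raw counts per gene and FPKM values were deposited by the authors in 1 table. According to the submitters' processing notes the tools were fastp, HISAT2 2.1.0, StringTie 1.3.3b and edgeR 3.30.3. The file headers name the counts and the FPKM that the authors computed, but how whole-number counts were obtained and whether strand was used are not given in the sources used here. Here counts were fitted in R 4.3.3 with edgeR 4.0.16 (filterByExpr, minimum count 10, minimum total 15; TMM; glmQLFit and glmQLFTest) on the 6 U87 libraries, with a common biological coefficient of variation of 0.203, and genes were called at an adjusted p under 0.05. FPKM served limma 3.58.1 as an alternative, on log2(FPKM + 1) and log2(FPKM + 0.1). DESeq2 1.42.0, limma voom, other scalings and no filter on low counts were other alternatives. So were a block for the replicate number, a fit of all 12 libraries and leaving out each library. Differences of single libraries are log2 CPM (prior count 2) minus the control mean. GC and length came from the longest GENCODE 29 transcript, and 97.58% of the identifiers found there had the same position. Correction used loess offsets (span 0.4). The depth puts 3 counts at 0.173 to 0.220 CPM.

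The 51 gene lists and 7 marker lists were chosen with earlier results of these data known. Named genes include the 10 with the largest change in each direction (protein-coding, called, no overlap, average log2 CPM of at least 4). The rest are the member of smallest p per direction in each list, set genes, and the ends of lists of 20 or fewer. Others are marked as chosen after their values were seen. A few genes that the rule names are not reported here. The tests were checked on simulated data, in which few genes changed, as many up as down, with the same spread in every library. No limit was set there for the uncorrected fit on counts with a GC trend. The check therefore does not cover false calls from such a trend in the main fit. Nor does it cover changes as broad as those called here, or libraries of unlike spread.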

Additional observations from a re-analysis of the deposited data

How the results depend on the processing

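Of 171 named genes that were called, 136 kept their direction and their call under all 18 alternatives. Many of them were named for a small p or a large change in the main fit, so this share does not stand for all called genes. Of all 9096 called genes, 5005 were called in the same direction after the GC and length correction. Called counts stayed within 1.5 times of the main ones, except for the 2-fold counts given next and those of the block with the correction, given below. At least 2-fold changes numbered 1057 upward and 1237 downward after the GC and length correction, 699 and 1511 with limma-trend on log2(FPKM + 1), and 703 and 1518 in the same without a filter on low values. Leaving out 1 library at a time gave 3605 to 4786 genes called higher and 3795 to 5270 lower, and 1563 to 1959 and 2515 to 3446 at 2-fold.

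The fold change changed sign in the correction, and in the correction with a replicate block, for CEBPB (0.85 and 0.83), CYC1 (0.15 and 0.14), DCN (-0.065 and -0.064), EIF4EBP1 (1.19 and 1.15), ERAP2 (-0.11 and -0.11), GGT1 (0.32 and 0.31), GPX4 (1.03 and 1.02), IARS2 (-1.3e-04 and -3.3e-04), ITGB1 (-0.28 and -0.27), MMP2 (0.55 and 0.54), PRDX5 (0.047 and 0.032), SCD (-0.00665 and -0.00604), TFRC (-0.029 and -0.029), TRA2B (-0.23 and -0.23) and TSC2 (0.17 and 0.17). MT-ATP6 changed sign in the correction (-0.018), with the block (-0.83), with both (-1.18), in limma voom (-1.46), in limma-trend on log2(FPKM + 1) with and without a filter (-0.76) and on log2(FPKM + 0.1) (-0.76), and without artesunate replicate 2 (-1.84). VIM changed sign in limma voom (0.068) and without artesunate replicate 2 (0.058), and HSPA1A without artesunate replicate 2 (-0.0049). Over the fits without 1 library the value ran from -1.84 to 0.69 in MT-ATP6, from -0.14 to 0.058 in VIM and from -0.0049 to 5.30 in HSPA1A. The cause was not tested.

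Deviations of same-numbered control and artesunate libraries from the group means had r of 0.074, 0.078 and -0.0075 for numbers 1, 2 and 3. Between different numbers r ran from -0.099 to 0.042, so numbers 1 and 2 had the highest values. All were small and the labels name no pairs, so the numbers were not taken as pairs. With the replicate number as a block 4218 genes were called higher and 4565 lower, 1662 and 2841 of them at least 2-fold. The block with the correction called 3014 lower, and 997 and 1158 at 2-fold.

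With 3 libraries in each group from 1 cell line, treatment cannot be told apart from any handling that went with it, and nothing here bears on dose or time. Genes at a few counts per library, such as APLN after artesunate, have fold changes that depend on the small count added in the fit.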
